A study of Mus musculus with 6 samples.

Results

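The surface ectoderm transcription factors comprised 9 genes, chosen by name: Tfap2a, Tfap2b and Tfap2c (AP-2 family), Grhl1, Grhl2 and Grhl3 (grainyhead family), Trp63, Ovol1 and Elf3. All probes carrying 1 of these symbols in the platform annotation were taken, which gave 22 of the 46632 probes on the array and 9 of its 17711 named genes. Of these, 16 probes of 7 genes were bright enough to be tested, and Grhl1 and Elf3 were not. The RNA came from laser-dissected mouse lens ectoderm of embryonic day 9.5, on a mixed C57BL6 and FVB background. There were 3 wild-type samples (WT 1 to WT 3) and 3 samples with the genotype label BMPR KO (KO 1 to KO 3), whose lens placode lacked type I receptors of bone morphogenetic protein (BMP) signalling through gene deletion. The titles of all 6 samples name the line ALK23, after ALK2 and ALK3, the products of Acvr1 and Bmpr1a. The Cre driver, the deleted exons and whether the WT embryos carried Cre or floxed alleles are not given in the sources used. The series text counts 3 embryos per genotype and also says that RNA was pooled, so how many embryos a sample holds is unclear. The 3 samples of a genotype may then differ partly for technical reasons, and each SD and p measures only the spread between them.

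The head surface ectoderm is the sheet from which the lens placode, the other placodes and the epidermis arise, and BMP signalling is known to favour epidermal over neural fate in early ectoderm. AP-2 proteins bind DNA as dimers and are expressed in surface ectoderm and in neural crest. In mice, loss of Tfap2a from the ectoderm disturbs separation of the lens from the surface. Grainyhead proteins switch on junction genes of epithelia, p63 (the product of Trp63) maintains the stratified epithelial programme, OVOL proteins are zinc finger repressors that keep epithelial cells from turning mesenchymal, and ELF3 is an epithelial ETS factor. The comparison of KO with WT asks whether these regulators of the surface ectoderm differ when the placode lacks BMP receptors.

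Promoter sequences are shown for Tfap2a, whose probes gave unlike differences between KO and WT, and for Tfap2b and Grhl3. Like Tfap2a and Trp63, the latter genes varied from array to array. RefSeq (build GRCm38.p6) listed 7 start regions for 5 of the 9 genes. Each line gives the 250 bases before a listed start, 5′ to 3′ on the gene's strand, in lower case with matches to 5 short motifs in capitals. Tfap2a lies at chr13:40713802-40738238 on the minus strand and has 2 listed starts, the regions before which are chr13:40734921-40735170 and chr13:40733796-40734045. Tfap2b (chr1:19211804-19212053) is on the plus strand and Grhl3 (chr4:135573633-135573882) on the minus strand.
Tfap2a, outer start: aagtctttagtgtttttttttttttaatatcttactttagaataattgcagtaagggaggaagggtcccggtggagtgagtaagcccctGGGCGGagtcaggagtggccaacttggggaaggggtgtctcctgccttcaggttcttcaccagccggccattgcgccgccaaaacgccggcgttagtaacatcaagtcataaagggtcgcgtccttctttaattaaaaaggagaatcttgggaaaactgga
Tfap2a, inner start: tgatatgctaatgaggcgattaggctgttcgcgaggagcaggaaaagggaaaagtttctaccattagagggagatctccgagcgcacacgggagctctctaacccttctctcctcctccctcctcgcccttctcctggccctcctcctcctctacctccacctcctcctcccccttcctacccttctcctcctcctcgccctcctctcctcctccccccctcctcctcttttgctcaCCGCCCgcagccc
Tfap2b: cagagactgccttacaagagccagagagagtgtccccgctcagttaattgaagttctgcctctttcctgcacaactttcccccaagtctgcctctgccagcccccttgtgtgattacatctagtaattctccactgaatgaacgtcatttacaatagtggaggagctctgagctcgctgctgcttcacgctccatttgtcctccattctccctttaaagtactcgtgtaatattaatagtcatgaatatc
Grhl3: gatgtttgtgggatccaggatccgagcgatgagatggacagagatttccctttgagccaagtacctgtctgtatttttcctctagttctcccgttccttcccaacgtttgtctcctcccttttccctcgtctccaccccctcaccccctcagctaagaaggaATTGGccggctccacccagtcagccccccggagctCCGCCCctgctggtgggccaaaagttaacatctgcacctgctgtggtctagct
Both strands were searched for an AP-2 site (GCCNNNGGC), a grainyhead site (AACNGGTT), the GC box with the letters GGGCGG, the box known by its letters CCAAT, and the TATA box with the letters TATAAA. Each Tfap2a region held 1 GC box and nothing else, Grhl3 held 1 GC box and 1 CCAAT box, and Tfap2b held none of the 5. Among all 32851 listed promoter regions of this length, 13.7% held the AP-2 letters, 1.79% the grainyhead letters, 32.7% a GC box, 33.8% a CCAAT box and 12.4% a TATA box. The outer Tfap2a region had a GC content of 47.6% and the inner one 60.4%. Where the 5 Tfap2a probes lie in relation to the 2 starts was not analysed here. An antisense gene, Gm26688 (chr13:40727808-40735162), overlaps Tfap2a.

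Each array detected between 39.6% and 45.7% of its probes. Acvr1, the receptor gene for ALK2, had 1 tested probe, whose WT arrays lay between 6.63 and 8.73 and whose KO arrays lay between 6.49 and 7.51 in normalized log2 intensity. Both Bmpr1a probes were detected on every array, with KO minus WT differences of 0.12 and -0.09. A probe outside the deleted exons checks nothing about the genotype, and the positions of these probes were not analysed here. Tested member probes were read from 21 to 71 beads per array, with a standard error of the beads between 2.14% and 8.09% of the raw intensity (median 3.69%). That bead error covers only the reading of 1 array and not the difference between samples.

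Across the members, none of the 16 tested probes passed an adjusted p of 0.05 for KO against WT (limma with Benjamini-Hochberg adjustment, 3 arrays per genotype), and the background was the same, with 0% of 20959 tested probes passing. The adjusted p of the member probes lay between 0.989 and 0.999. At an unadjusted p below 0.05 there was 1 member probe, while 4.49% of all tested probes (941) reached that level. The WT and KO arrays did not overlap for 1 of the 16 member probes (6.25%), against 9.82% of all tested probes, so the members' share was not above the background. Higher KO means were found for 9 of the 16 member probes and lower KO means for 7, while 50.9% of all tested probes were higher in KO. The members had a median log2 difference of 0.02, beside 0.01 for all tested probes. For 4 of the 16 the 95% interval of the difference held no change as large as 2-fold, against 40.7% of all tested probes. At 11 of the other 12 the interval held both no change and a change of that size, and at Tfap2a ILMN_2764846 it left out 0.

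**Figure D1:**
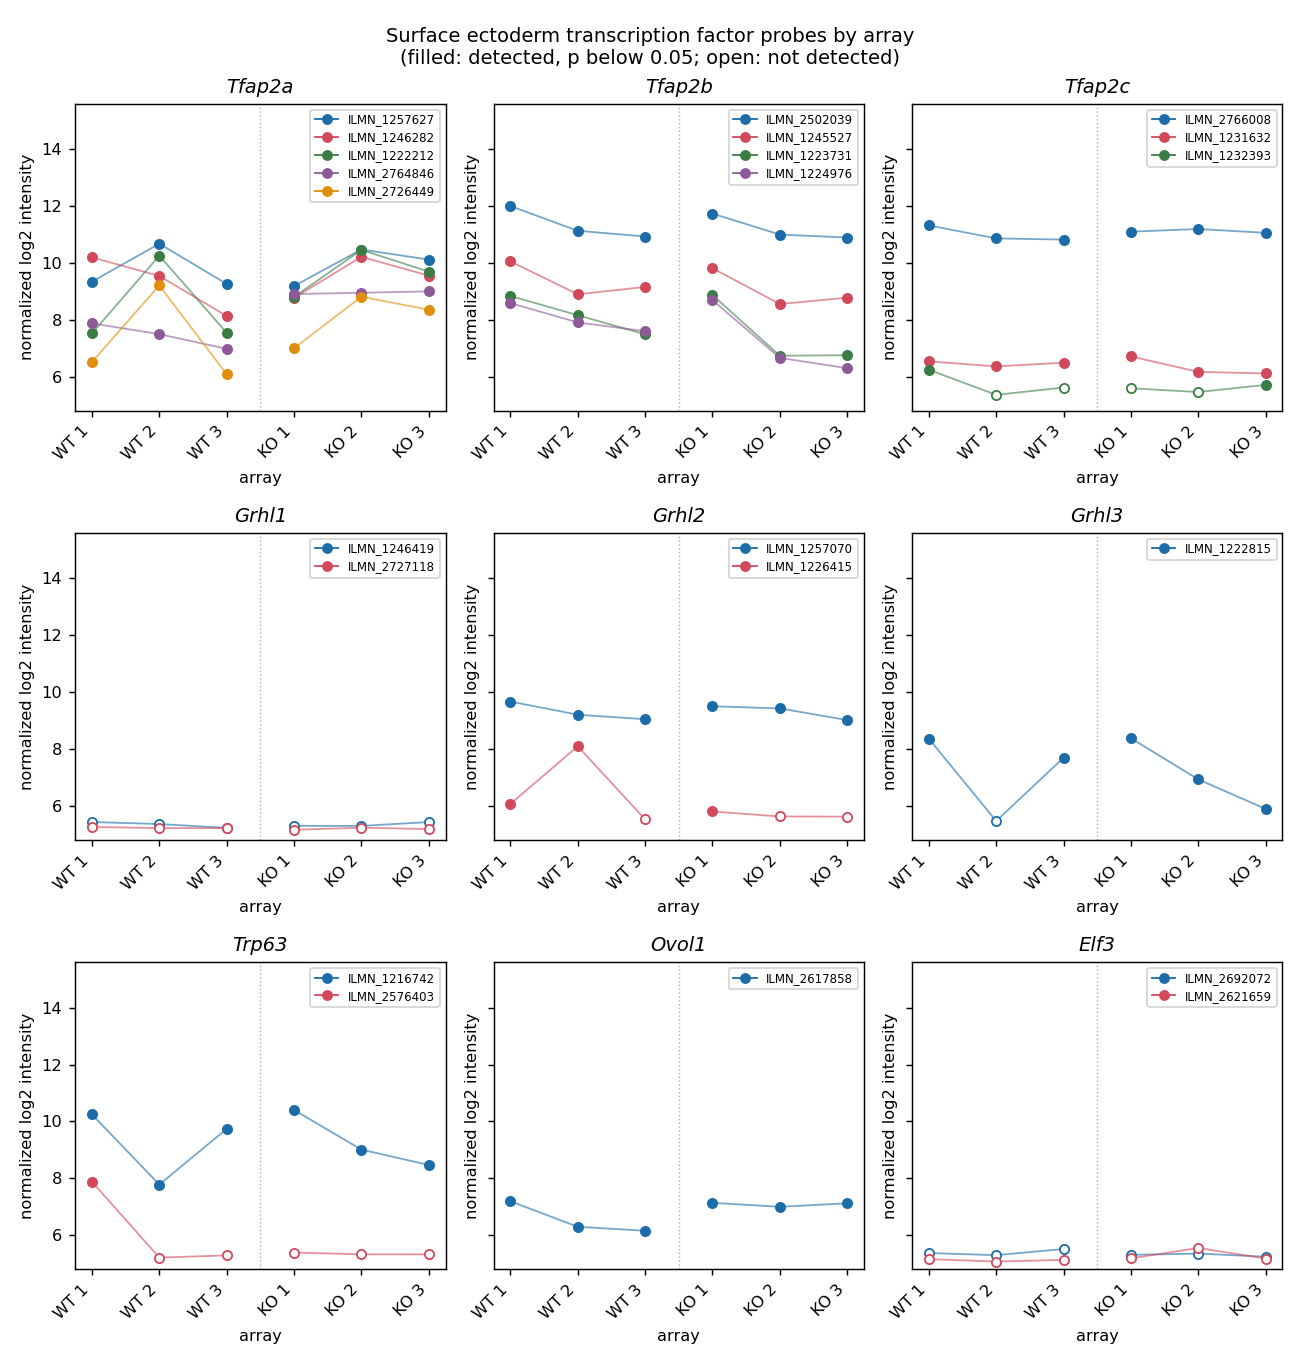
Normalized log2 intensity of all 22 probes on the 6 arrays, 1 panel per gene. Filled points are detected (detection p below 0.05), open points are not, and lines join arrays of 1 genotype only as a guide to the eye. Trp63 and Grhl3 are high on WT 1, WT 3 and KO 1, and Grhl1 and Elf3 are not detected on any array.

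Tfap2a, which encodes AP-2 alpha, was read by 5 probes, all detected on all 6 arrays. They did not give the same order of arrays. ILMN_1257627, the brightest, had 9.34, 10.67 and 9.26 on WT 1 to WT 3 and 9.19, 10.47 and 10.11 on KO 1 to KO 3. WT 2, KO 2 and KO 3 were thus high and the other 3 arrays lay close together. ILMN_1222212 had 7.52, 10.26 and 7.54 in WT and 8.80, 10.46 and 9.69 in KO, and ILMN_2726449 had 6.51, 9.21 and 6.08 in WT and 6.995, 8.81 and 8.35 in KO. These 3 probes share their 3 highest arrays, and their genotypes overlap. The range over the arrays differed, however, from 2.80-fold for ILMN_1257627 to 7.68-fold for ILMN_1222212 and 8.72-fold for ILMN_2726449.

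The remaining Tfap2a probes departed from that pattern. ILMN_1246282 had 10.19, 9.54 and 8.13 in WT and 8.77, 10.21 and 9.55 in KO, so WT 1, low on the 3 probes above, was its second highest array. ILMN_2764846 had 7.87, 7.49 and 6.98 in WT and 8.90, 8.95 and 9.0 in KO. It was the only member probe with every KO array above every WT array, as 5.38% of all tested probes were. Its KO mean was 8.95 ± 0.05 and its WT mean 7.45 ± 0.45 (SD, n = 3), a log2 difference of 1.5 (95% interval 0.74 to 2.27, limma, unadjusted p = 0.00178, adjusted p = 0.989). The difference was higher in 3 of 3 KO arrays, stayed between 1.27 and 1.72 with any 1 array left out, and did not pass over all probes.

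The other Tfap2a probes all had higher KO means as well, but with wide intervals. Their log2 differences were 1.21 for ILMN_1222212 (95% interval -0.46 to 2.89), 0.79 for ILMN_2726449 (-1.14 to 2.71), 0.22 for ILMN_1246282 (-1.0 to 1.45) and 0.17 for ILMN_1257627 (-0.83 to 1.17). The last of these was negative without WT 1 (-0.04), without WT 3 (-0.08) or without KO 2 (-0.11), and ILMN_1246282 was negative without WT 3 (-0.35) or without KO 2 (-0.13). WT 2 was the highest WT array on ILMN_1222212 and ILMN_2726449, and without it their differences were 2.12 (95% interval 1.09 to 3.15) and 1.75 (0.35 to 3.16), with a limma adjusted p of 0.747 for both. With each other array left out in turn, ILMN_1222212 lay between 0.75 and 1.64 and ILMN_2726449 between 0.19 (without WT 3) and 1.31. ILMN_1257627 is assigned to a cDNA clone record and the other 4 to 1 RefSeq transcript record. Agreement was summarised as the number of the 15 pairs of arrays that both probes put in the same order. Over the 10 pairs of Tfap2a probes this number ran from 8 to 13, where the median of 4018 probe pairs of the same gene was 8 and their middle 50% ran from 6 to 11. Disagreement of this kind was therefore common on these arrays. The KO minus WT differences of ILMN_1257627 and ILMN_2764846 were 1.34 apart, beyond the 95th percentile of 1.08 among those 4018 pairs. This pair was the farthest apart of the 10 and was picked after the values were seen, so that percentile of single pairs is no test of it.

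**Figure D2:**
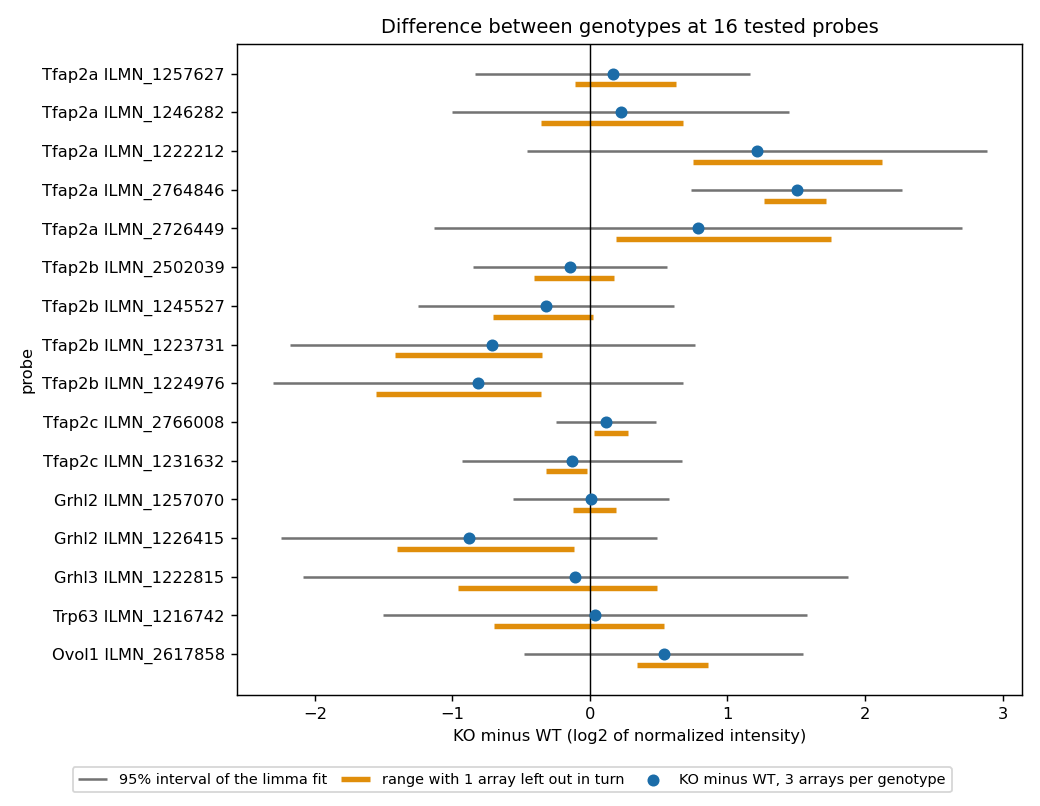
KO minus WT difference in normalized log2 intensity (x axis) at the 16 tested probes (y axis). Points are differences of 3 against 3 arrays, grey bars the 95% interval of the limma fit, and orange bars the range when 1 array is left out in turn. The interval of Tfap2a ILMN_2764846, from 0.74 to 2.27, is the only one that does not include 0.

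Tfap2b, which encodes AP-2 beta, had 4 tested probes, and these matched one another more closely. ILMN_2502039 had 12.00, 11.13 and 10.93 in WT and 11.73, 10.996 and 10.89 in KO, and ILMN_1245527 had 10.05, 8.89 and 9.15 in WT and 9.81, 8.55 and 8.78 in KO. ILMN_1223731 had 8.84, 8.16 and 7.49 in WT and 8.87, 6.73 and 6.75 in KO, and ILMN_1224976 had 8.58, 7.90 and 7.60 in WT and 8.69, 6.66 and 6.29 in KO. WT 1 and KO 1 were the 2 highest arrays on all 4 probes, and the genotypes overlapped on each. The 6 pairs of Tfap2b probes put 12 to 14 of the 15 array pairs in the same order. All 4 differences were negative, at -0.15 (95% interval -0.85 to 0.56), -0.32 (-1.25 to 0.61), -0.71 (-2.18 to 0.76) and -0.81 (-2.30 to 0.68) in the order given. Limma gave adjusted p of 0.992 for ILMN_2502039 and 0.989 for the rest. Without WT 1 the 2 brightest probes had positive differences (0.18 and 0.023), and ILMN_2502039 had 0.01 without KO 3. Without KO 1 the differences of the 2 dimmer probes were larger. ILMN_1223731 then had -1.42 (-2.69 to -0.14) and ILMN_1224976 -1.55 (-2.79 to -0.31), with a limma adjusted p of 0.998 for both, and with each other array left out they lay between -1.05 and -0.35. The wide KO spread of ILMN_1224976 (SD 1.29) came from KO 1 (8.69) lying far above KO 2 (6.66) and KO 3.

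Tfap2c, which encodes AP-2 gamma, was the steadiest of the family. Its bright probe, ILMN_2766008, had 11.32, 10.86 and 10.82 in WT and 11.10, 11.19 and 11.06 in KO. All 6 arrays lay within 1.41-fold, and its pooled SD within the genotypes (0.20) was above that of only 15.4% of the tested probes. The difference was 0.12 (95% interval -0.25 to 0.48, limma adjusted p = 0.989), within a 2-fold change either way. ILMN_1231632 had 6.53, 6.36 and 6.49 in WT and 6.71, 6.17 and 6.11 in KO, a difference of -0.13 (-0.93 to 0.67). A Tfap2c probe not tested, ILMN_1232393, was detected on WT 1 (6.24) and KO 3 (5.71) and lay between 5.36 and 5.61 elsewhere.

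Grhl2, an activator of epithelial junction genes that is needed for neural tube closure in mice, had a steady probe and an erratic one. ILMN_1257070 had 9.67, 9.21 and 9.05 in WT and 9.5, 9.43 and 9.02 in KO, and the genotypes overlapped almost fully. Means of 9.31 ± 0.32 (WT) and 9.32 ± 0.26 (KO; SD, n = 3) gave a difference of 0.01, with -0.56 and 0.58 as the ends of the 95% interval (limma adjusted p = 0.999). ILMN_1226415 had 6.07, 8.10 and 5.52 in WT and 5.80, 5.62 and 5.62 in KO, and only WT 2 stood out. It was not detected on WT 3, KO 2 and KO 3, so those values lie at the detection floor. Its difference of -0.88 (-2.25 to 0.48) rested on WT 2 and was -0.11 without that array.

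Grhl3, known from mice for roles in neural tube closure and skin barrier formation, had the widest spread within genotypes of all tested member probes. ILMN_1222815 had 8.36, 5.46 and 7.69 in WT and 8.38, 6.93 and 5.89 in KO. WT 1, WT 3 and KO 1 were high, and on WT 2 the probe was not detected. Its range over the arrays was 7.54-fold, and its pooled SD of 1.39 exceeded that of 98.8% of the tested probes. The KO minus WT difference was -0.11 (95% interval -2.09 to 1.88, limma adjusted p = 0.997), so the interval held both a 2-fold loss and a 2-fold gain. The difference was positive without WT 1 (0.49), without WT 3 (0.15) and without KO 3 (0.48). Grhl1, the remaining grainyhead gene, was read by 2 probes at 5.16 to 5.43, and neither was detected on any array. Such values bound the signal of these probes and do not show that Grhl1 RNA was absent.

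Trp63, the p63 gene, varied in step with Grhl3. ILMN_1216742 had 10.24, 7.78 and 9.74 in WT and 10.40, 9.01 and 8.47 in KO. From high to low the order was KO 1, WT 1, WT 3, KO 2, KO 3 and WT 2, the same as for Grhl3. In raw intensity WT 1 read 1359 and WT 2 246, with bead errors of 2.14% and 3.44%. The means were 9.25 ± 1.30 in WT and 9.29 ± 1.0 in KO (SD, n = 3), and the difference was 0.04 (95% interval -1.5 to 1.58, limma adjusted p = 0.997). It became -0.70 without WT 2 and -0.52 without KO 1. A clone-record probe, ILMN_2576403, was detected on WT 1 alone, at 7.88, and lay between 5.21 and 5.39 on the other 5 arrays.

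Ovol1, a zinc finger repressor of epidermal progenitors, had 1 probe, detected on all arrays. ILMN_2617858 had 7.19, 6.29 and 6.15 in WT and 7.14, 7.0 and 7.12 in KO. The KO arrays were close together, and WT 1 lay above all of them while WT 2 and WT 3 lay below. The difference was 0.54 (95% interval -0.48 to 1.55, limma adjusted p = 0.989), and it stayed between 0.34 and 0.86 with any 1 array left out. Elf3 was read by 2 probes, at 5.07 to 5.55, and was not detected on any array.

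Arrays of 1 genotype differed widely in most members. The pooled SD within genotypes had a median of 0.82 over the tested member probes and 0.43 over all tested probes, and 11 of the 16 lay above the latter. WT 1 and KO 1 were the 2 highest arrays for 9 of the 16 member probes (all 4 of Tfap2b, with 1 probe each of Tfap2c, Grhl2, Grhl3, Trp63 and Ovol1), against 7.51% of all tested probes. WT 2, KO 2 and KO 3 were the 3 highest for 3 Tfap2a probes, against 7.02% of all tested probes. These sets of arrays were picked after the values were seen and cut across the genotypes, so the shares are descriptions. Probes of the same gene are also not independent.

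**Figure D3:**
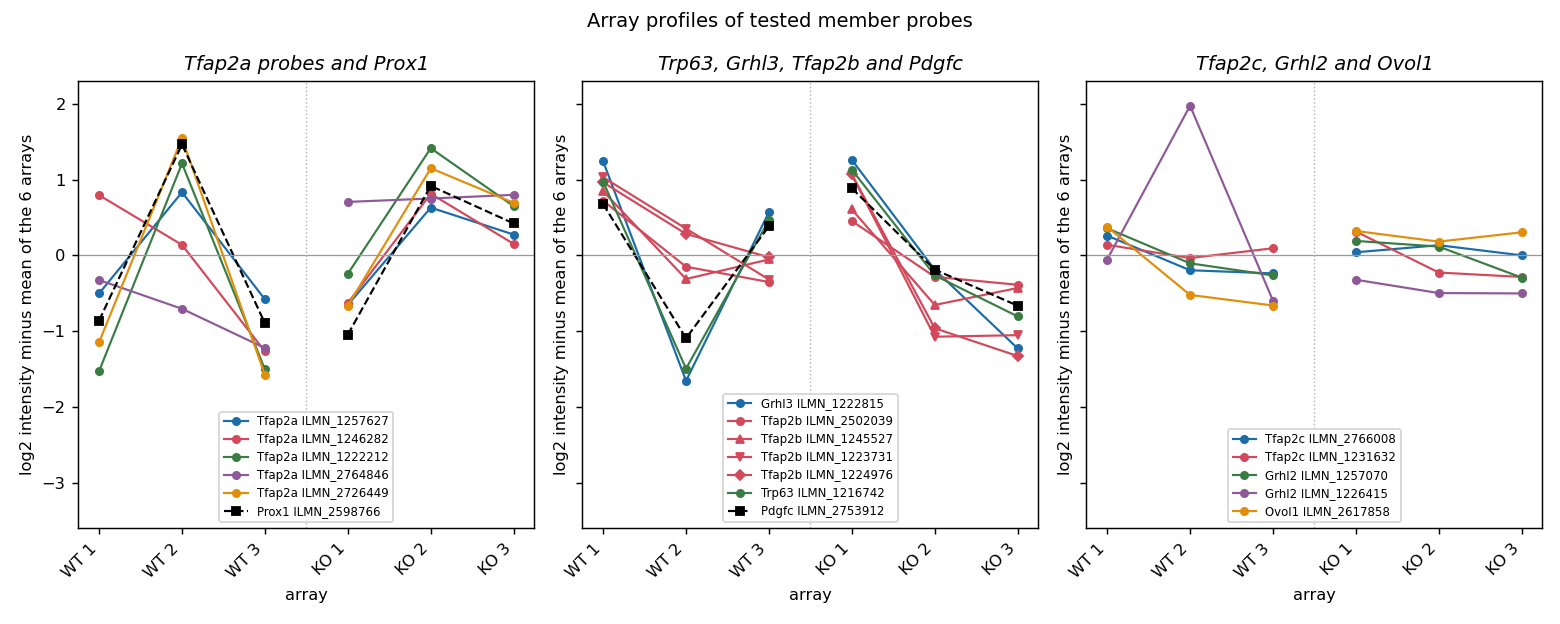
Log2 intensity of each tested member probe minus its mean over the 6 arrays (y axis) by array (x axis). Dashed lines with squares show Prox1 and Pdgfc, the genes most like Tfap2a ILMN_1257627 and Trp63. Trp63 and Grhl3 run from KO 1 at the top to WT 2 at the bottom, whereas 3 Tfap2a probes are highest on WT 2, KO 2 and KO 3.

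Some lists of markers for the tissues in a dissected piece were high on the same arrays as some member probes, and others were not. The summed normalized intensity of the 7 measured lens placode markers (of 10 listed) was 4389, 13785 and 6073 on WT 1 to WT 3 and 4243, 11474 and 11023 on KO 1 to KO 3, high on the same arrays as 3 of the Tfap2a probes. For the 6 measured general epithelial markers (of 8), Cdh1, Epcam, Krt8, Krt18, Cldn7 and Esrp1, the sum was 5676, 5634 and 5065 in WT. It was 6523, 6298 and 6617 in KO, so that every KO array lay above every WT array, as for 5.38% of single tested probes. On each of the 6 markers alone the genotypes overlapped, with log2 differences between 0.002 (Cldn7) and 0.52 (Esrp1). How often sums of other gene sets separate in this way was not tested. The 8 measured optic vesicle markers (of 12) summed to 469 on WT 2 and 1054 on KO 2 and to between 1972 and 3443 on the other arrays. The 4 measured endothelial markers (of 6) summed to 1238 on WT 1 and 1708 on KO 1, the arrays high in Tfap2b, and to between 339 and 601 elsewhere. The 7 measured mesenchyme and neural crest markers (of 15) spanned 2031 to 2629 in WT and 2020 to 2405 in KO. That narrow span of the sum hid unlike profiles. Pdgfra was highest on WT 2, KO 2 and KO 3, whereas Alx1, Col1a2, Col3a1 and Twist1 were highest on WT 1, WT 3 and KO 1. Prrx2 followed neither order, nor did Prrx1 on its brightest probe, ILMN_1248338, which stood for it in the sum. The dimmer tested Prrx1 probes, ILMN_1227686, ILMN_2678094 and ILMN_1234976, were highest on WT 1, WT 3 and KO 1. The mean log2 intensity of the list was 8.21, 7.47 and 8.49 in WT and 8.09, 7.31 and 7.47 in KO. Sox10, Foxd3, Snai1 and Tcf21 of that list were detected on no array. The 5 measured erythroid markers (of 8) were also highest on WT 1 (10946) and KO 1 (9927), with 4893 to 8043 elsewhere. So were the 4 neuronal ones (of 6), at 630 and 534, although WT 3 followed closely at 532 and the rest lay between 364 and 393. Single genes did not all follow these sums. WT 1 and KO 1 were the highest arrays for Hba-x and Hbb-bh1 but not for Hba-a1, Alas2 and Klf1. Among the neuronal markers this held for Map2 but not for Elavl3, Elavl4 and Tubb3. Among the endothelial ones it held for Emcn and Esam but not for Kdr and Pecam1. In such bulk samples fewer cells of a type and less RNA per cell cannot be told apart, and the part of these tissues in the member profiles was not tested.

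The genes most like 3 of the members were sought among 7266 other named genes detected on every array, by Pearson correlation over the 6 arrays. For Tfap2a ILMN_1257627 they were Prox1, the homeobox regulator of lens fibre differentiation (r = 0.998, Spearman rho = 1.00), the peroxidasin gene Pxdn (0.994 and 1.00) and Mycbp2 (0.985 and 0.943). Prox1 had 8.85, 11.18 and 8.82 in WT and 8.67, 10.63 and 10.13 in KO. For Trp63 they were Pdgfc, which encodes a platelet-derived growth factor (r = 0.998, rho = 1.00), Thoc7 (0.991 and 0.943) and Iqck (0.991 and 1.00). Pdgfc had 9.25, 7.48 and 8.96 in WT and 9.46, 8.38 and 7.91 in KO. For Grhl2 ILMN_1257070 they were Rabl3 (0.994 and 1.00), Pigo (0.980 and 1.00) and Apex2 (0.971 and 0.886). With the 2 arrays farthest from the median left out, r stayed between 0.953 and 1.000 over these 9 genes. With 6 arrays and this many genes high values are found for many profiles: 57 genes exceeded 0.95 for Trp63, 35 for Tfap2a and 6 for Grhl2.

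Relatives and cofactors of the members likewise gave no gene past the threshold in either direction (limma adjusted p). Of 10 AP-2 relatives and cofactors 5 were measured, with 2 KO means higher and 3 lower, and the median difference was -0.08, beside -0.01 for all 10099 named genes tested. Tfap2d, a further AP-2 gene, was above the detection limit on every KO array and on 0 of the 3 WT arrays. It thus passed the detection filter through its KO arrays alone, and a higher KO mean was partly built into its selection. Its values were 5.25, 5.35 and 5.54 in WT and 5.63, 6.49 and 5.67 in KO. KO 1 and KO 3 lay near the lowest detected values of those arrays (5.63 and 5.65). The 95% interval of its log2 difference, -0.05 to 1.15, carries the same selection, so no fold is given. Tfap2d is also 1 of the 2 genes counted above as higher. Kctd1 and Kctd15 encode BTB proteins that inhibit AP-2 alpha. Kctd1 had 9.63, 9.67 and 9.66 in WT and 9.19, 9.53 and 9.46 in KO, a difference of -0.26 (-0.69 to 0.17). Its KO arrays all lay below its WT arrays, as for 4.44% of all tested probes. Kctd15 had 0.13 (-0.92 to 1.19), and Yeats4, a chromatin reader that binds AP-2 beta, had -0.20 (-0.60 to 0.20).

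Of 8 grainyhead relatives and cofactors 6 were measured, 3 in each direction, with a median difference of 0.01. Lmo4, a LIM-only partner of GRHL3, had 11.17, 11.33 and 11.12 in WT and 11.14, 11.26 and 11.37 in KO. Its difference of 0.05 had a 95% interval from -0.24 to 0.34, and its second probe had -0.07. Among the CP2 relatives of the grainyhead family, Tfcp2 had 0.28 (-0.78 to 1.34; -0.74 on its second probe), Ubp1 0.16 (-1.24 to 1.56; -0.09) and Tfcp2l1 -0.70 (-2.40 to 1.01). Tfcp2l1 was detected on WT 1, WT 3 and KO 3 only.

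Measurements were had for 10 of 20 other surface ectoderm and epidermal transcription factors, 5 in each direction, with a median difference of -0.03. Ovol2, the paralogue of Ovol1 and a repressor of mesenchymal genes, had 9.21, 7.83 and 8.18 in WT and 7.63, 6.99 and 7.32 in KO. Every KO array was below every WT array, as for 4.44% of all tested probes. The difference was -1.10 (95% interval -2.12 to -0.07, limma, unadjusted p = 0.0392, adjusted p = 0.989), opposite in sign to the 0.54 of Ovol1. Dlx5, a homeobox gene of the ectoderm bordering the neural plate, had -0.20 (-0.86 to 0.46), Klf4 -0.14 (-1.17 to 0.89) and Klf5 -0.18 (-0.62 to 0.25). The Klf4 and Klf5 probes were each detected on only 2 of the 3 KO arrays. Klf5 read 5.53 to 5.96, near the detection floor, which limits what its narrow interval can show.

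Of 32 genes known as targets of these factors, most of them epithelial, 22 were measured. Of these, 9 KO means were higher and 13 lower, with a median difference of -0.07. The list also held the mesenchymal genes Vim (-0.26) and Zeb1 (-0.10), both counted among the lower. The counts and the median are therefore not those of epithelial genes alone. Cdh1, the E-cadherin gene, had 9.59, 9.18 and 9.28 in WT and 9.18, 9.56 and 9.85 in KO on its brighter probe, a difference of 0.18 (-0.36 to 0.73). Epcam, an epithelial adhesion molecule, had 0.38 (-0.34 to 1.10), and Esrp1, an epithelial splicing regulator, had 0.52 (-0.09 to 1.14). Of 8 keratins 5 were measured, with 3 KO means higher and 2 lower, with a median of 0.16. Krt8 and Krt18, the keratin pair of simple epithelia, had 0.21 (-0.20 to 0.63) and 0.16 (-0.21 to 0.53). The basal keratins Krt5 and Krt14 had 0.75 (-0.16 to 1.66) and -0.22 (-1.46 to 1.01), and Krt14 was detected on only 3 arrays. Each of the 2 keratin intervals of simple epithelium lay within a 2-fold change either way.

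**Figure D4:**
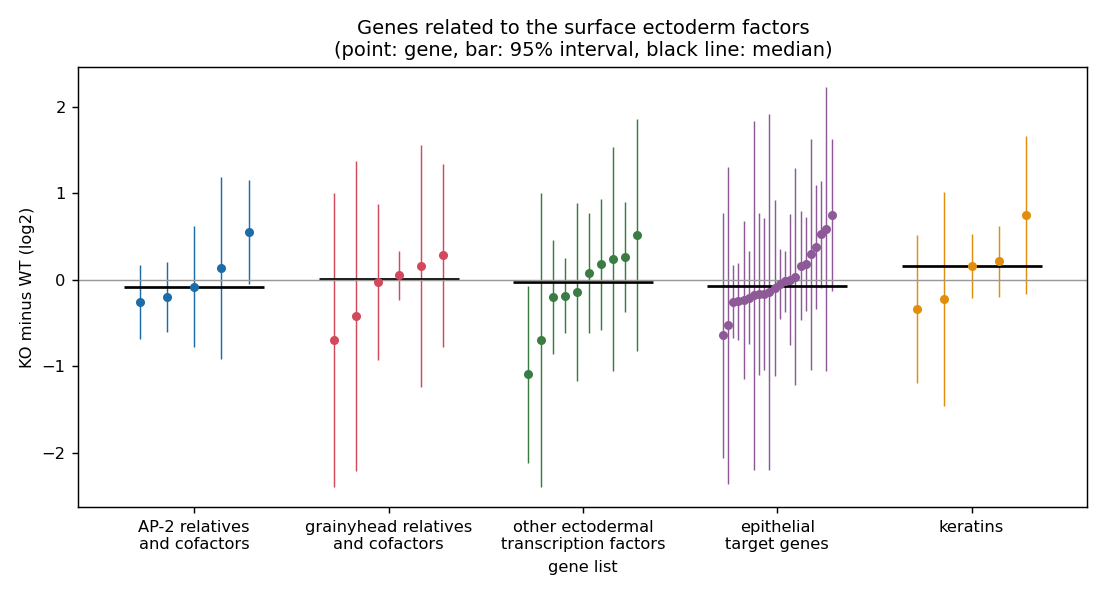
KO minus WT log2 difference (y axis) of the measured genes in 5 lists (x axis). Points are genes, bars the 95% interval of the limma fit on 3 against 3 arrays, and black lines the list medians, which lie between -0.08 and 0.16. Ovol2 is the lowest point of the third list, at -1.10.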

How the data were processed

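RNA of the 6 samples (15 ng input, sections of 10 microns, per the labels' protocols) was amplified, biotin labelled and hybridised to Illumina BeadChip arrays. GenomeStudio, version unstated, stands in the submitters' processing notes. The deposited non-normalized table gave, per the file headers, the mean bead intensity with its standard error, the number of beads and the detection p-value of each probe on each array, and its intensity was linear with no background subtraction visible. The deposited series matrix held processed intensity, with medians between 18.51 and 18.54, minima between -26.9 and -24.4 and a rank correlation of 1.0 with the raw values. Its scale was read as linear, its direction was that of the intensity, and the method of background subtraction and centring stays unknown. Aligned coordinates and the probes' sequences were not used here.

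Intensities were normalized by neqc (limma 3.58.1, R 4.3.3; normexp with controls inferred from the detection p-value, offset 16, quantile) and put on a log2 scale. The deposited detection p-value had to be below 0.05 on at least 3 arrays, which left 20959 probes. Each was fitted as KO minus WT (lmFit, eBayes with a variance trend), with Benjamini-Hochberg adjustment of p over all of them. All tests were two-sided. The number of arrays limits the precision. A list gene stands for its tested probe with the highest mean. Symbols came from the platform annotation (29976 probes with 1 symbol, 10 with several, 16646 unnamed) and coordinates from RefSeq on GRCm38.p6. Where no array of 1 genotype detected a probe, no fold is given. Every probe of every member was named. The list genes named were set by role, whatever their values, and like genes by rank of correlation. Members and lists were chosen with earlier results of these data known. Equal replicate numbers were not treated as pairs in the main fit. The deviations of samples with the same number correlated at 0.106, 0.136 and -0.008, and those with different numbers between -0.194 and 0.125. These values do not decide whether the samples were paired. Alternatives covered the offset, background correction, the processed table, the detection filter, array weights, the replicate block, the variance trend and each array left out.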

Additional observations from a re-analysis of the deposited data

How the results depend on the processing

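Over all 8 other processing choices and all 6 omissions of an array, 0 member probes and 0 of all tested probes passed the adjusted threshold (limma), and the lowest adjusted p of a member probe was 0.683. With the replicate block the counts were likewise 0, and 986 probes had an unadjusted p below 0.05. Of 126 member values under the other choices, 2 had the opposite sign: Grhl3 ILMN_1222815 with the authors' processed table (0.11) and Trp63 with array weights (-0.43). With 1 array left out, 17 of 96 values changed sign, at 7 of the 16 probes. For these the ranges were -0.11 to 0.62 and -0.35 to 0.68 (Tfap2a ILMN_1257627 and ILMN_1246282), -0.41 to 0.18 and -0.70 to 0.023 (Tfap2b ILMN_2502039 and ILMN_1245527), -0.12 to 0.19 (Grhl2 ILMN_1257070), -0.96 to 0.49 (Grhl3) and -0.70 to 0.54 (Trp63). The cause was not tested. The other 9 probes kept their direction under every choice, among them Tfap2a ILMN_2764846, between 1.24 and 1.72. Filtering for detection on all 6 arrays removed Grhl2 ILMN_1226415 and Grhl3, which thus have no value there. Values near the detection floor, as at Grhl1, Elf3 and Grhl2 ILMN_1226415, limit what the dim probes can show.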

Other observations

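Cdh1, the E-cadherin gene, resembled Tfap2a in having probes that did not agree, an observation made after the values were seen. Its dimmer probe, ILMN_1227162, had 5.87, 8.37 and 5.46 on WT 1 to WT 3 and 7.17, 9.0 and 8.29 on KO 1 to KO 3, with WT 2, KO 2 and KO 3 highest, as on 3 of the Tfap2a probes, and was not detected on WT 3. The KO minus WT log2 difference of that probe was 1.58 (limma 95% interval -0.28 to 3.44), while the brighter Cdh1 probe, ILMN_2628629, had 0.18. The dimmer Dlx5 probe, ILMN_1241949, was highest on the same 3 arrays, at 6.37, 6.69 and 6.60. It was not detected on WT 1 and WT 3, so no size of its difference is given.

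Prom2, a prominin of epithelial cells, ordered the arrays exactly as Trp63 and Grhl3 did, from KO 1 and WT 1 down to WT 2. Its brightest probe had WT and KO means of 9.88 ± 1.57 and 10.47 ± 0.86 (SD, n = 3), with a difference of 0.59 (-1.06 to 2.23).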
